A study of Homo sapiens with 4 samples.

Results

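The 10 genes described here encode the desmosome, the junction that fastens the keratin filaments of neighbouring epithelial cells to each other. They were chosen by symbol and are 10 of the 26726 genes listed. Of these, 4 encode desmosomal cadherins and lie together on chromosome 18 (DSC2, DSC3, DSG2 and DSG3), and 6 encode plaque or tetraspan proteins on other chromosomes (JUP, PKP1, PKP2, PKP3, DSP and PERP). RNA sequencing compared ATAD3A KO cells of the line HN12 with parental HN12 cells (WT), with 2 libraries from independent cultures in each group. HN12 is an established line of human head and neck squamous cell carcinoma, and ATAD3A is an ATPase of the mitochondrial membranes. KO cells were made with CRISPR/Cas9 and puromycin selection and grown out from single cells, and the sources used here do not say from which clones the KO libraries came, so an effect of the deletion and a property of a clone cannot be told apart. By the labels, both groups grew in the same medium with serum and antibiotics, with no further agent named. The paper names a different medium with serum for its cell lines. The question is how the desmosomal genes were expressed with and without ATAD3A, and whether the cadherins on chromosome 18 moved with the plaque genes elsewhere.

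In a desmosome, the desmogleins (DSG) and desmocollins (DSC) of adjacent cells bind each other outside the membrane through calcium-dependent contacts. Inside the cell their tails bind plakoglobin (JUP) and the plakophilins (PKP), armadillo-repeat proteins of the plaque, and these hold desmoplakin (DSP), a plakin whose far end binds keratin filaments. PERP is a tetraspan membrane protein that is needed for stable desmosomes in stratified epithelia, and it is also a target of p53 family factors. DSG2 and DSC2 are used by simple as well as stratified epithelia, while DSG3 and DSC3 are typical of the basal layers of stratified squamous epithelium, the tissue in which this cancer arises.

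The promoters of the 4 cadherin genes are shown because these genes lie side by side and fell together. Each window is the 250 bases before an annotated start, from RefSeq on GRCh38.p14, written 5′ to 3′ on the strand of the gene. DSC2 has windows for 2 starts, at chr18:31102422-31102671 and chr18:31101261-31101510 on the minus strand, and DSC3 has 1 at chr18:31042743-31042992 on the minus strand. The DSG2 window is chr18:31497927-31498176 and the DSG3 window chr18:31447491-31447740, both on the plus strand. Capitals mark the E-box CANNTG and the GC box GGGCGG or its reverse complement, the motifs with a match among the 5 that were searched on both strands.
DSC2, start 1: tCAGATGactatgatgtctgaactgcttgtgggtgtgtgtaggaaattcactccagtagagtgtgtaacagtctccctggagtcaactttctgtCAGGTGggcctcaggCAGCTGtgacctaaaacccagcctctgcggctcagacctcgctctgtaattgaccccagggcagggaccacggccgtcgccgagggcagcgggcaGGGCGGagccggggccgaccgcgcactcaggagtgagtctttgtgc
DSC2, start 2: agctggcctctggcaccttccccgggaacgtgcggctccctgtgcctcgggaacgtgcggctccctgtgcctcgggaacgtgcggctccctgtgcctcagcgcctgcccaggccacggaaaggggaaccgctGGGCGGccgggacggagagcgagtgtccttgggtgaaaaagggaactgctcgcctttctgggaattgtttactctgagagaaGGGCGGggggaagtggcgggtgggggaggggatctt
DSC3: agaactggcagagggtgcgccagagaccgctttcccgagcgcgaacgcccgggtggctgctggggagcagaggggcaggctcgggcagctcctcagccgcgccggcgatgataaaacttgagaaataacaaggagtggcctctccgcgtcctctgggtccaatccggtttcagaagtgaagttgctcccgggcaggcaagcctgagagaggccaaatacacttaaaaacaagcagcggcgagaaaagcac
DSG2: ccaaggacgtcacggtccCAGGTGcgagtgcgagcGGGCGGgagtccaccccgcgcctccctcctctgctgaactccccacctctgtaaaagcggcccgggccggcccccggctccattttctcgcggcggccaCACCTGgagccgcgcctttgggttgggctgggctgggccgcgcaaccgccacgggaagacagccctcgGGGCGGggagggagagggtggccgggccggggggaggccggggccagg
DSG3: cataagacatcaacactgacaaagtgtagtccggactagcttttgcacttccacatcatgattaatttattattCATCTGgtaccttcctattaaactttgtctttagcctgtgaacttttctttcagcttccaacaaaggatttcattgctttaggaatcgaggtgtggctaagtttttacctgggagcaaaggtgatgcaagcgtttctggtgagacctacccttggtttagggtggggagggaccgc

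The windows differed from each other. DSC2 had 3 E-boxes and 1 GC box at the first start and 0 and 2 at the second. DSG2 had 2 of each, DSG3 had 1 E-box and no GC box, and DSC3 had neither. None of these windows held the AP-1 motif TGANTCA, the GRHL motif AACNGGTT or the TATA box TATAAA. Of 35116 windows of the same length over all genes, 61.8% held an E-box, 42.6% a GC box, 6.57% the AP-1 motif, 1.49% the GRHL motif and 10.7% a TATA box. GC content was 59.6% and 66.8% in the DSC2 windows, 60.4% in DSC3, 75.2% in DSG2 and 42.8% in DSG3, against a median of 58.0% over all windows. Motif matches describe the letters only, and matches that overlapped were each counted. Among the other members with a window, PERP held 1 AP-1 motif and 5 GC boxes, and PKP2 and PKP3 had no window in the table used.

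The libraries held 13569971 to 18943547 counts, and 15104 genes passed a filter on low counts and were tested with edgeR's quasi-likelihood test, with p-values adjusted over those genes by the Benjamini-Hochberg method. All 10 desmosomal genes passed. ATAD3A itself had 1802 and 1471 counts in the WT libraries and 702 and 492 in the KO libraries, a log2 fold change of -1.70 (SE 0.0907, adjusted p = 1.53e-17). Squamous epithelial markers matched the label of the line, with 8 of 8 above 1 RPKM in every library, while the endothelial markers summed to at most 0.33 RPKM. Of the genes tested, 39.5% passed an adjusted p of 0.05, 2891 lower (19.1%) and 3074 higher (20.4%) in KO cells. With scaling by library totals alone these became 3613 lower and 2510 higher.

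The desmosomal genes moved in both directions. All 4 cadherins and DSP fell in KO cells, which makes 5 of 10 lower against 19.1% of all tested genes. PKP1, PKP3, JUP and PERP rose, 4 of 10 against 20.4%, and PKP2 did not pass the test. In 9 of the 10 genes the KO and WT libraries did not overlap in normalized counts, which was also so for 68.1% of all tested genes. The KO libraries lay below in 5 genes and above in 4, against 34.0% and 34.1% of all tested genes. At the thresholds the study set on the unadjusted p and the fold, 5 of the 10 were lower and 3 higher, against 12.2% and 17.0%, or 29.2% together, and JUP was the gene that dropped out. The median log2 fold change was -1.12 over the cadherins and 0.28 over the plaque and tetraspan genes, a difference of -1.41, while the median over all tested genes lay at 0.00. In bulk RNA, fewer cells that express a gene and less RNA per cell cannot be told apart.

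**Figure D1:**
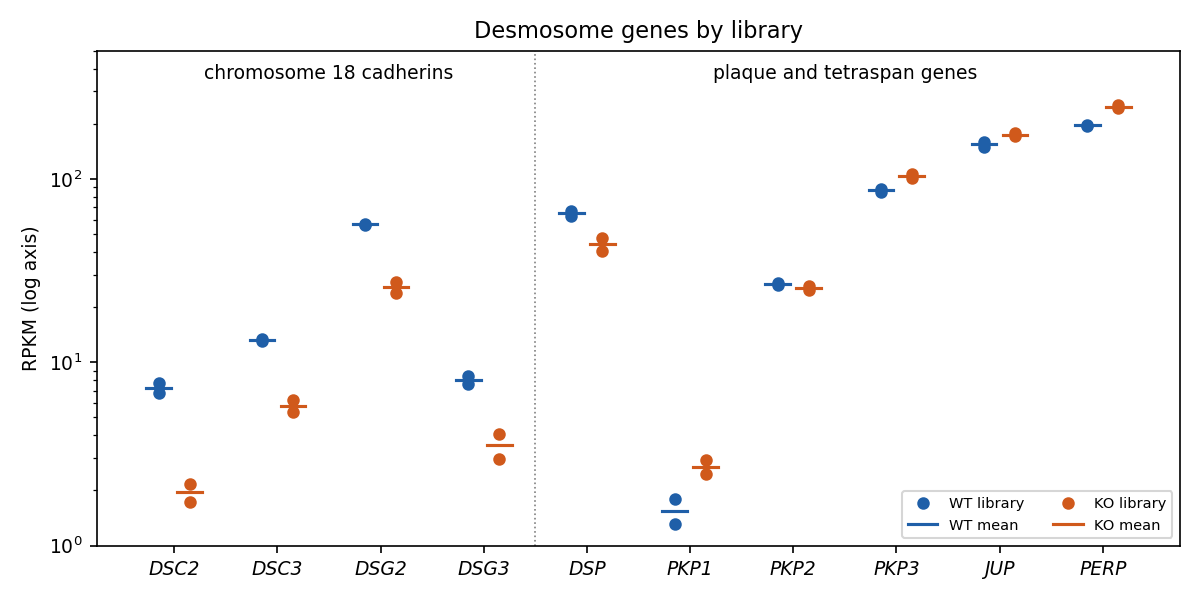
Levels of the 10 desmosomal genes in RPKM on a log axis, with a point for each library and a bar at the mean of each group of 2. The 4 cadherins and DSP lie lower in both KO libraries, and PKP1, PKP3, JUP and PERP lie higher. The PKP2 points lie close together, at 26.5 and 26.9 in WT cells and 26.1 and 24.9 in KO cells.

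Desmogleins carried most of the cadherin RNA. DSG2, the desmoglein found in nearly all epithelia with desmosomes, had 4968 and 4522 counts in the WT libraries and 2629 and 2697 in the KO libraries, or 56.1 and 57.1 against 23.8 and 27.5 RPKM. Both KO libraries lay well below both WT libraries. The DSG2 log2 fold change was -1.07 (SE 0.0615, adjusted p = 1.28e-16), a level 2.11-fold lower in KO cells.

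DSG3, the desmoglein of basal keratinocytes and the main target of autoantibodies in pemphigus vulgaris, had 637 and 628 counts in WT cells and 312 and 376 in KO cells, or 7.60 and 8.38 against 2.98 and 4.05 RPKM. Its groups did not overlap either. The log2 fold change was -1.12 (SE 0.12, adjusted p = 1.34e-09), close to that of DSG2, whose 95% interval of -1.20 to -0.95 lay within the interval of -1.36 to -0.88 for DSG3.

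Among the desmocollins, DSC2 showed the lowest fold change of the 10 genes. It had 596 and 474 counts in the WT libraries and 168 and 188 in the KO libraries, or 7.67 and 6.82 against 1.73 and 2.18 RPKM. Both KO libraries were far below the WT libraries, by 3.54-fold on the fitted scale, a log2 fold change of -1.82 (SE 0.135, 95% interval -2.10 to -1.55, adjusted p = 1.35e-13). DSC3, the desmocollin of basal squamous layers, had 1424 and 1242 counts in WT cells and 708 and 732 in KO cells, or 13.4 and 13.1 against 5.36 and 6.24 RPKM. It was lower in both KO libraries, with a log2 fold change of -1.13 (SE 0.0852, 95% interval -1.30 to -0.96, adjusted p = 2.17e-13). The DSC2 interval did not meet those of DSC3, DSG2 or DSG3, although the differences between genes were not tested.

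The remaining cadherins of the cluster were hardly expressed. DSG1, a cadherin of the upper epidermal layers, had 10 and 6 counts in WT cells and 2 and 1 in KO cells, and DSC1 had 1 count in a single WT library and 0 in the others. Neither passed the filter, and DSG4 was not analysed here. Antisense genes overlap DSG2 and DSC2, but DSG2-AS1 held at most 6 counts in a library and DSCAS at most 6, and whether the counting used strand is not given in the sources used here.

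The cadherin genes lie next to each other on chromosome 18 in the order DSC3, DSC2, DSC1, DSG1, DSG4, DSG3 and DSG2, the desmocollins on the minus strand and the desmogleins on the plus strand. Most tested genes of this chromosome were lower in KO cells, 139 of 195 (71.3%), with a median log2 fold change of -0.76, against 0.00 on the other chromosomes. Without the members the chromosome 18 median was -0.74 over 191 genes. The 4 cadherins all lay below the median of their chromosome, by 1.06 for DSC2, 0.37 for DSC3, 0.36 for DSG3 and 0.31 for DSG2 on the log2 scale. Within the chromosome, 5 genes had a lower fold change than DSC2, 38 a lower one than DSC3, 40 than DSG3 and 43 than DSG2. The shift was uneven along the chromosome, in stretches compared after the values were seen. Its median was -0.52 over the 77 tested genes before the cluster and -0.92 over the 114 after it, and -0.57 and -1.05 over the nearest 20 on either side. Of those nearest 20 after the cluster, 9 had a lower fold change than DSC3, DSG3 and DSG2 and 2 a lower one than DSC2, so that 3 of the cadherins lay near the median of that stretch. A log2 fold change past -1 with an adjusted p under 0.05, which all 4 reached, was found in 28.7% of the tested genes of chromosome 18 and 2.74% of all tested genes. With an offset for GC content and length only DSC2 stayed past -1, with DSG3 at -0.95, DSG2 at -0.89 and DSC3 at -0.88. Without KO replicate 1, DSG2 was at -0.97 and DSG3 at -0.91. Whether the copy number of chromosome 18 differs between the groups was not tested.

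Neighbours of the cluster did not share one change. On the desmocollin side CDH2, the N-cadherin gene, had 810 and 702 counts in WT cells and 964 and 853 in KO cells. In RPKM these were 12.3 and 11.9 against 11.7 and 11.7. The groups overlapped in normalized counts but not in RPKM, with a log2 fold change of 0.02 (95% interval -0.16 to 0.20, adjusted p = 0.881). Of the 195 tested genes of the chromosome, 181 had a lower fold change than CDH2. KCTD1 lay beyond it at -0.09 (adjusted p = 0.527) and TAF4B at -0.71 (adjusted p = 3.68e-05). On the desmoglein side B4GALT6, a galactosyltransferase of glycolipid synthesis, had 209 and 198 counts in WT cells and 60 and 75 in KO cells, a log2 fold change of -1.83 (95% interval -2.25 to -1.41, adjusted p = 3.85e-09). TRAPPC8 followed at -1.21 (adjusted p = 2.99e-10) and RNF125 at 0.15 (adjusted p = 0.797), the latter on at most 46 counts. The cluster thus lay between a cadherin gene at a log2 fold change of 0.02 and a gene at the fold change of DSC2.

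**Figure D2:**
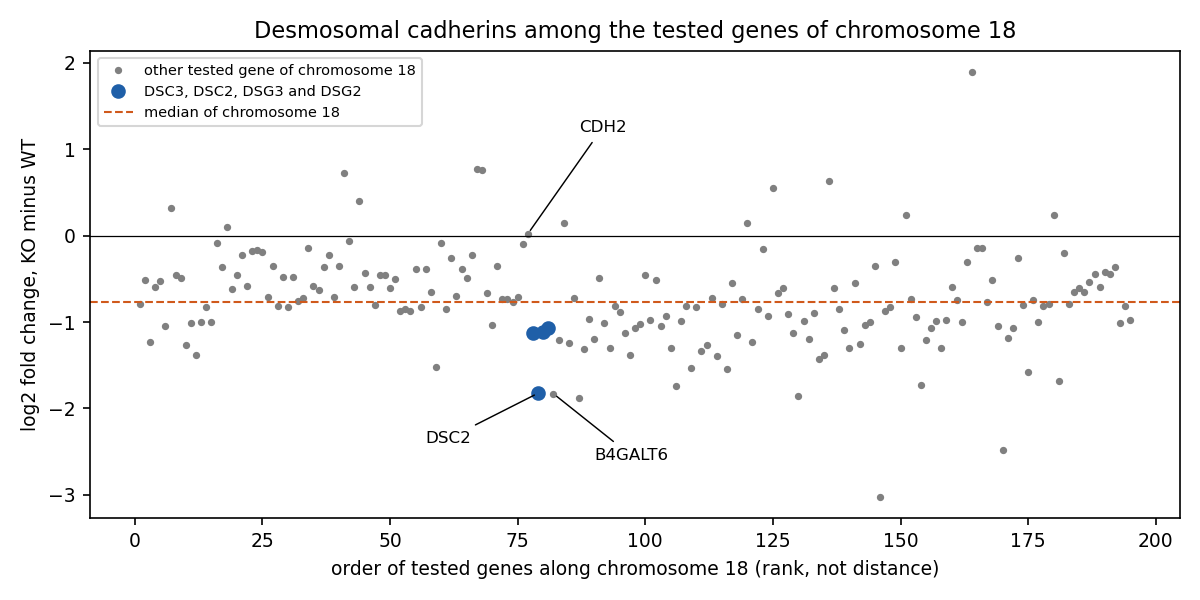
Log2 fold change (KO minus WT) of the 195 tested genes of chromosome 18 in their order along the chromosome, with the 4 desmosomal cadherins in blue and the median of -0.76 as a dashed line. The 4 cadherins sit together below the median, with CDH2 near 0 on one side and B4GALT6 at -1.83 on the other.

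Plaque genes on other chromosomes moved less. JUP, plakoglobin, which binds the cadherin tails and also occurs in adherens junctions, had 8420 and 7140 counts in WT cells and 11701 and 10065 in KO cells, or 159 and 150 against 177 and 171 RPKM. Both KO libraries were above the WT libraries, with a log2 fold change of 0.24 (SE 0.0516, 95% interval 0.14 to 0.34, adjusted p = 0.000266). The median of chromosome 17, where JUP lies, was 0.10. With a correction for GC content and length the JUP value was 0.02 (adjusted p = 0.714) and the call was lost.

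Of the 3 plakophilins, which gather desmoplakin at the plaque, PKP1 and PKP3 rose and PKP2 did not pass the test. PKP1, the plakophilin of differentiated squamous cells, had 108 and 132 counts in WT cells and 255 and 269 in KO cells, or 1.31 and 1.79 against 2.47 and 2.94 RPKM. It was higher in both KO libraries, with a log2 fold change of 0.88 (SE 0.177, 95% interval 0.52 to 1.24, adjusted p = 0.000111), the highest of the 10 genes. PKP2, which is widespread and the main plakophilin of the heart, had 1729 and 1568 counts against 2128 and 1797, or 26.5 and 26.9 RPKM in WT cells and 26.1 and 24.9 in KO cells. Its groups overlapped in normalized counts but not in RPKM, with a log2 fold change of 0.00 (95% interval -0.13 to 0.14, adjusted p = 0.969). Of the 50-nt stretches of its longest annotated transcript, 7.10% also occur in another annotated gene. That share was 4.18% for DSG3, 2.02% for DSC3, 1.49% for PERP, 0.882% for DSG2 and 0.367% for DSC2. It was 0% for DSP, PKP1, PKP3 and JUP.

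PKP3, which is present through the layers of most stratified epithelia, had 3635 and 3379 counts in WT cells and 5663 and 4784 in KO cells, or 85.3 and 88.6 against 106 and 101 RPKM. Both KO libraries were higher, with a log2 fold change of 0.33 (SE 0.056, adjusted p = 1.13e-05). The GC and length correction brought PKP3, whose GC content of 66.7% was the highest of the 10 genes, to -0.03 (adjusted p = 0.688), so that its direction rests on that choice.

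DSP was the plaque gene that fell. It had 9909 and 8383 counts in the WT libraries and 7562 and 7835 in the KO libraries, or 66.7 and 63.1 against 40.7 and 47.6 RPKM. Both KO libraries lay below both WT libraries, at a log2 fold change of -0.49 (SE 0.058, 95% interval -0.60 to -0.37, adjusted p = 1.39e-08) where the median of chromosome 6 was -0.18. PERP, on the same chromosome, went the other way. PERP had 5942 and 5354 counts in WT cells and 9327 and 8500 in KO cells, or 195 and 196 against 245 and 252 RPKM, and its log2 fold change was 0.41 (SE 0.052, 95% interval 0.31 to 0.52, adjusted p = 3.93e-08).

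**Figure D3:**
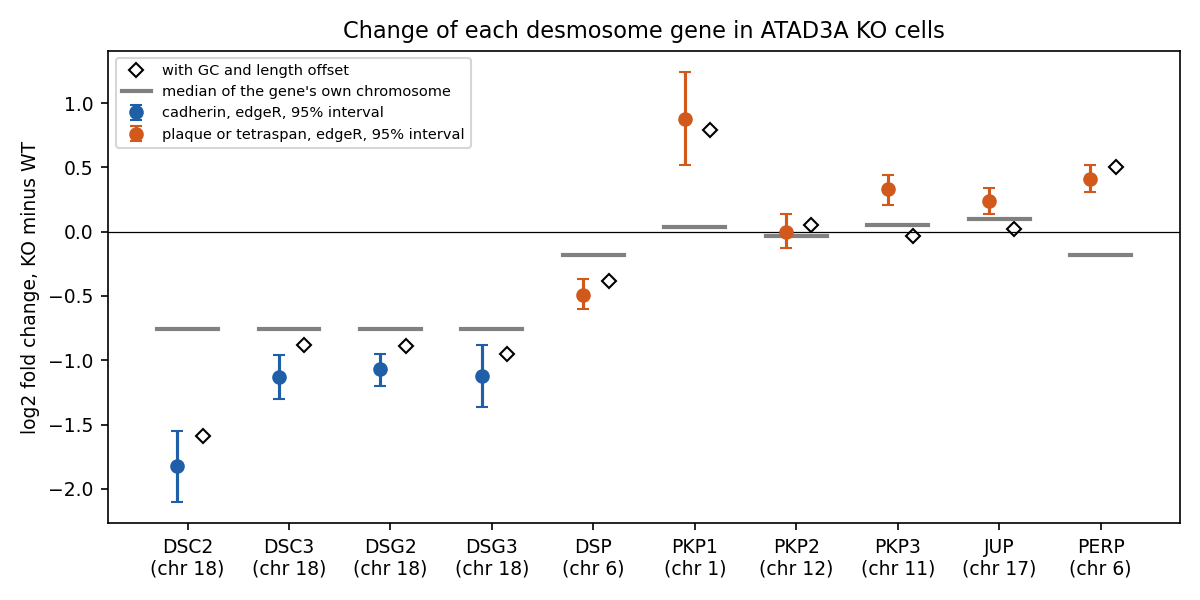
Log2 fold change (KO minus WT) of the 10 desmosomal genes with 95% intervals, as fitted and with an offset for GC content and length. The 4 cadherins and DSP stay below 0 and PERP and PKP1 above 0 in both fits, while JUP and PKP3 move to 0.02 and -0.03 with the offset.

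Base composition differed between the cadherins and the plaque genes. Median GC was 41.0% for the cadherin transcripts, 52.1% for the plaque and tetraspan transcripts and 48.2% for all tested genes. Median lengths were 5678, 3899.5 and 3137.5 nt in the same order. With the offset for GC content and length the cadherin median was -0.92 and the plaque and tetraspan median 0.04, a difference of -0.96. All 4 cadherins remained lower, at -1.59 for DSC2 (adjusted p = 3.52e-12), -0.95 for DSG3 (3.10e-08), -0.89 for DSG2 (2.20e-16) and -0.88 for DSC3 (1.89e-11). DSP was at -0.38 (adjusted p = 1.39e-08), PKP1 at 0.79 (0.000495) and PERP at 0.50 (1.71e-11), each still past the threshold. The chromosome 18 median stayed at -0.70 with that offset.

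Levels per length gave an order of the junction's components. In WT cells the mean RPKM ran from PERP (196) through JUP (155), PKP3 (87.0), DSP (64.9), DSG2 (56.6), PKP2 (26.7) and DSC3 (13.3) to DSG3 (7.99), DSC2 (7.24) and PKP1 (1.55). Of these neighbours only DSG3 and DSC2 had overlapping libraries. In KO cells the first 4 kept their places, DSG2 (25.7) and PKP2 (25.5) overlapped, and DSC2 (1.96) came last, behind PKP1 (2.70).

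As a sum, the 4 cadherins made up 84.9 and 85.5 RPKM in WT cells and 33.9 and 40.0 in KO cells, while the 6 plaque and tetraspan genes made up 533 and 527 against 597 and 600. The cadherin share of the 10 genes was 13.7% and 13.9% in WT cells and 5.36% and 6.25% in KO cells. Per unit of cadherin RNA, JUP RNA was 1.87 and 1.76 in WT cells and 5.22 and 4.28 in KO cells, and DSP RNA 0.786 and 0.738 against 1.2 and 1.19. These ratios did not overlap between the groups. With 2 libraries against 2, an exact two-sided permutation test cannot give a p below 0.333, and no other test of these ratios was run. From counts without length, JUP was 1.1 and 1.04 per cadherin count in WT cells and 3.07 and 2.52 in KO cells, DSP 1.3 and 1.22 against 1.98 and 1.96, and the cadherin share 20.4% and 20.9% against 9.44% and 10.7%. The directions matched those per length, but on that scale DSP exceeded JUP in WT cells.

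Within the families, some proportions held and others moved. DSG2 made up 88.1% and 87.2% of DSG2 and DSG3 RNA in WT cells and 88.9% and 87.2% in KO cells, with overlapping groups. DSC2 made up 36.3% and 34.2% of DSC2 and DSC3 RNA in WT cells and 24.4% and 25.9% in KO cells, with no overlap. The ratio of desmogleins to desmocollins was 3.02 and 3.29 in WT cells and 3.78 and 3.75 in KO cells. Among the plakophilins, PKP3 accounted for 75.4% and 75.6% in WT cells and 78.8% and 78.5% in KO cells, PKP2 for 23.4% and 22.9% against 19.3% and 19.2%, and PKP1 for 1.16% and 1.52% against 1.83% and 2.28%. All 3 plakophilin shares lay apart between the groups, although PKP2 RNA itself did not pass the test. The shares add to a whole, so they are not separate results. With the GC and length offset the log2 fold change of PKP3 was -0.03 and that of PKP2 0.05, and shares were not computed with that offset.

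Genes that work with the desmosome were taken from fixed lists. Keratins, the filaments that desmoplakin binds, rose in 7 of 9 tested genes, against 20.4% of all tested genes, with a median log2 fold change of 0.94. The basal pair KRT5 and KRT14 were at 2.63 (adjusted p = 9.11e-32) and 2.20 (5.08e-27), and KRT6A and KRT16, keratins of activated keratinocytes, at 2.76 (7.99e-20) and 1.5 (5.13e-06). KRT5 went from 162 and 158 RPKM in WT cells to 949 and 941 in KO cells. KRT19, named after its value was seen, was the keratin that fell, at -0.22 (adjusted p = 0.00235), a call lost without WT replicate 1 (-0.17, adjusted p = 0.116). Most keratins and the cadherins thus moved in opposite directions in the same libraries.

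Of 6 plakins and other plaque proteins linked to them, 2 rose, against 20.4% of all tested genes, and 4 did not pass, with a median of 0.03. Those that rose were PLEC at 0.69 (adjusted p = 4.89e-15) and EVPL, the cornified envelope plakin envoplakin, at 0.58 (2.14e-09). With the GC and length offset 1 of the 6 was lower, 3 were higher and the median was 0.2. Of all 15104 tested genes, 2521 were lower and 2570 higher with that offset. Hemidesmosome genes, which fasten keratin to the basement membrane rather than to the next cell, rose in 3 of 4, against the same 20.4%. ITGB4 was at 0.96 (adjusted p = 4.90e-19), COL17A1 at 0.79 (3.30e-16) and CD151 at 0.44 (5.95e-06). CD151 lost its call with the GC and length offset (0.11, adjusted p = 0.207).

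Lists of other cell contacts had medians nearer to 0 than the desmosomal cadherins, though OCLN and GJB2 moved as far as single cadherins. In the adherens junction list 4 of 8 genes fell and 1 rose, with a median of -0.12, where 19.1% of all tested genes fell and 20.4% rose. CDH1, E-cadherin, was at -0.24 (adjusted p = 0.00187), VCL at -0.20 (0.00256) and AFDN at -0.17 (0.0213), NECTIN1 rose by 0.19 (0.00738), and CTNNB1, named after its value was seen, was at -0.13 (0.0485), a call lost in 8 of 13 alternatives, among them DESeq2 (adjusted p = 0.0634), the replicate block (0.0877) and the fits without KO replicate 2 (0.124), WT replicate 1 (0.379) or WT replicate 2 (0.13). Several of these calls were lost under other settings. Without WT replicate 1, CDH1 had an adjusted p of 0.0689 and VCL 0.175. AFDN lost its call without KO replicate 1 (-0.09, adjusted p = 0.276) or either WT library, and NECTIN1 without KO replicate 2 (0.12, adjusted p = 0.113) or WT replicate 2 (0.112). With the GC and length offset 2 of the list fell and 0 rose, where 2521 of all 15104 tested genes fell and 2570 rose. Of the tight and gap junction genes 6 of 10 fell and 1 rose, against 19.1% and 20.4% of all tested genes, with a median of -0.20. With the GC and length offset 5 of these fell and 1 rose, against the same numbers of all tested genes given above for that offset. The median was then -0.15. OCLN, occludin, was at -1.19 (adjusted p = 7.05e-09), GJA1 at -0.60 (2.73e-06), CLDN4 at -0.44 (0.00129) and GJB2 at 1.24 (1.72e-07).

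Of the 3 tested proteases that cut desmosomal cadherins 2 fell and 0 rose, where 19.1% of all tested genes were lower and 20.4% higher. ADAM17 was at -0.37 (adjusted p = 0.000126) and ADAM10 at -0.25 (0.00193), and both calls were lost with the GC and length offset (0.1 and 0.866). Among 7 transcription factors known to act on epithelial junction genes, 3 fell and 1 rose, where 19.1% of all tested genes were lower and 20.4% higher. ELF3 was at -0.47 (adjusted p = 0.000224), GRHL2 at -0.35 (0.00157) and TP63, the master factor of squamous epithelium and a regulator of PERP, at -0.28 (0.000163), while KLF4 was at 0.45 (0.000766). GRHL2 was at -0.21 (adjusted p = 0.0764) without KO replicate 1, and TP63 at -0.12 (0.0555) with the GC and length offset.

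**Figure D4:**
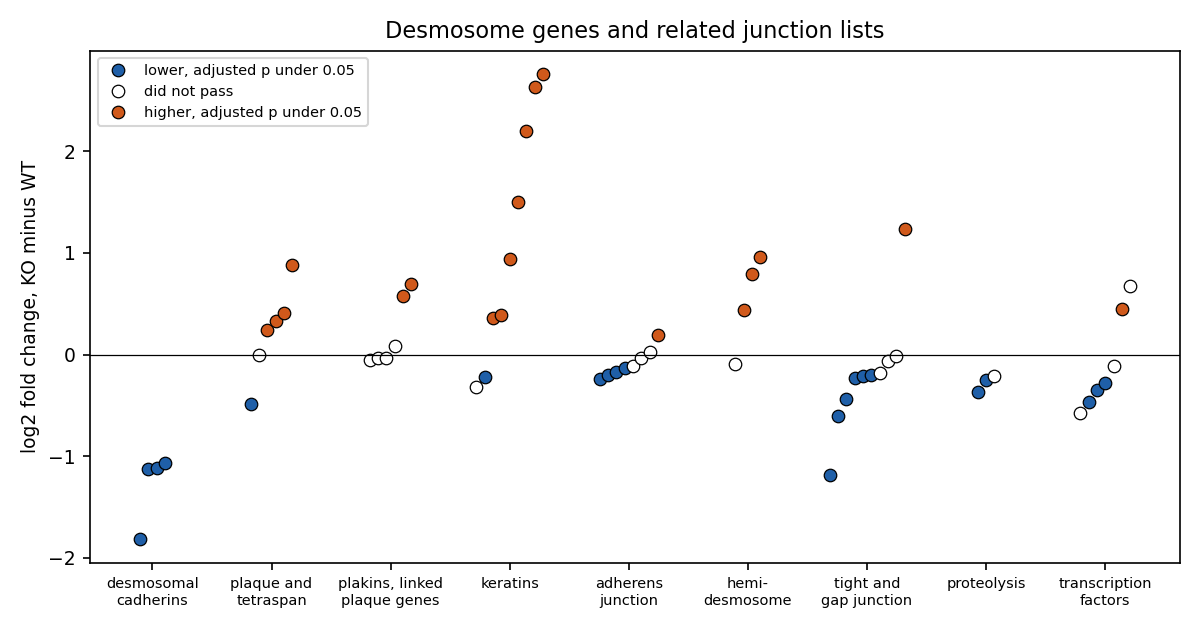
Log2 fold change (KO minus WT) of each tested gene in the member groups and in the lists of desmosome-linked genes, with points coloured by call and a line at 0. The cadherins lie at -1.82 to -1.07, the keratins have a median of 0.94 and the adherens junction genes a median of -0.12.

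Markers of other cell types were read in the same libraries, where 19.1% of all tested genes fell and 20.4% rose. Of the squamous markers, KRT5, KRT14, KRT6A, CDH1, TP63 and ITGB4 of the lists among them, 3 fell and 5 rose. Those that fell were CDH1, TP63 and EPCAM, the last at -0.34 (adjusted p = 6.26e-06). The summed level of the squamous markers was 1190 and 1210 RPKM in WT cells and 2560 and 2550 in KO cells. Most of that rise lay in KRT5, at 162 and 158 against 949 and 941 RPKM, and KRT14, at 88.9 and 97.0 against 410 and 402. Of the mesenchymal markers 6 were in the tables and 2 rose, VIM at 1.33 (adjusted p = 6.11e-16) and ZEB1 at 1.46 (0.00721). ZEB1 was at 1.09 without KO replicate 1 and 1.35 without WT replicate 1. It did not pass with limma on log2(RPKM + 0.1) (1.0, adjusted p = 0.0717). COL1A1 (-0.05, adjusted p = 0.843) and PDGFRB (-1.3, adjusted p = 0.0763) did not pass in the main fit. The mesenchymal list summed to 35.1 and 31.0 RPKM in WT cells and 59.5 and 57.5 in KO cells. VIM held most of that sum, at 20.1 and 16.9 RPKM in WT cells and 45.5 and 43.2 in KO cells. CDH2, which is also on that list, was at 0.02. For protein, the paper reported more E-cadherin and less vimentin in ATAD3A KO HN12 cells. The RNA of CDH1 and VIM went the opposite way here, and RNA and protein are different measures. COL1A2, a fibroblast collagen, had at most 2 counts in a library. Leukocyte markers summed to 1.2 to 2.0 RPKM over the 4 libraries, with PTPRC at 9 counts or fewer. The part of the mesenchymal markers in the desmosomal values was not tested.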

How the data were processed

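Gene lists and members were chosen with earlier results of these data known. The authors extracted total RNA and sequenced 50-nt reads, and the submitters' processing notes name CASAVA, STAR 2.5, HTSeq, edgeR 3.16.5, DESeq2 and the build hg19, with no role or order. The authors deposited read counts per gene, not normalized, and a table that was worked out from its values to hold RPKM, the deposited count divided by 1 length per gene and the library total. Independent cultures were sampled, so p-values measure the spread between cultures.

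From the counts, edgeR 4.0.16 in R 4.3.3 was run with filterByExpr, TMM factors (0.9747 to 1.027), glmQLFit and glmQLFTest without a replicate term, after tests on simulated counts. The biological coefficient of variation was 5.875%. The test was two-sided at an adjusted p of 0.05 (Benjamini-Hochberg), and intervals are 95%. Levels between genes were compared in RPKM, and overlap of groups in CPM (counts scaled to the library total times its TMM factor). The GENCODE 29 annotation of GRCh38 supplied chromosomes, gene order and GC, and placed 25550 of 26726 genes, so no gene coordinates are given on the build of the files. The GC and length offset used splines with 4 degrees of freedom. Named genes were the 10 members, ATAD3A, 3 tested neighbours on each side of the cluster, CDH1, CDH2, TP63 and the called genes with the largest changes in each list. Alternatives, 13 for each gene, were DESeq2 1.42.0, its size factors, library totals, other filters, limma 3.58.1 on log2(RPKM + 0.1) and log2(RPKM + 1), the offset, a replicate block and leaving out each library. For the neighbours, KRT19, CTNNB1, VIM and ZEB1 these were added after seeing the data. Protein sequences were not used here.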

Additional observations from a re-analysis of the deposited data

How the results depend on the processing

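Over 13 alternatives for each of the 10 genes, 128 of 130 values kept their side of the threshold and, in called genes, their direction. PKP2, which was not called in any fit, lay on both sides of 0, from -0.07 to 0.05. The 2 values that changed came with the GC and length offset, where PKP3 reversed to -0.03 and JUP fell short at 0.02. With it 2 desmosomal genes in place of 4 were higher, where 2570 of all 15104 tested genes were higher. That offset also moved the cadherin median to -0.92, the plaque and tetraspan median to 0.04 and their difference to -0.96, and the cause was not tested. The plaque and tetraspan median was 0.21 with library totals only and with limma on either RPKM scale. PKP1 was at 0.54 on log2(RPKM + 1), a scale that shrinks low genes. With an unadjusted p of 0.05 and the fold limits of the study (1.25 and 0.75), 1847 genes of all tested were lower in place of 2891. DSC2 made up 28.6% of desmocollin counts in WT cells and 19.8% in KO cells when counts were used without length.

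Leaving out each library in turn gave cadherin medians from -1.29 to -1.0 and differences between the groups of members from -1.61 to -1.25, with DSC2 between -1.99 and -1.66. Each such fit leaves 1 sample in a group, which is assumed to vary like the other group. The replicate numbers did not pair the samples (correlation of deviations -0.0597 over 11200 genes), and a replicate block gave a cadherin median of -1.13, with 5 members lower and 4 higher, and changed 1 of 44 calls of named genes, that of CTNNB1. Depth limits PKP1 most, with 108 counts in its lowest library. Intervals rest on 2 libraries a group, and the spread behind them was mostly shared over all tested genes (34.08 prior degrees of freedom).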
